A study of Triticum aestivum with 12 samples.

Results

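Line C40 is a transgenic wheat line overexpressing the ΔC form of TaSIP1, and the labels also write it as 40C. It was compared with wild type (WT) in RNA from the upper part of untreated seedlings, harvested without their roots at an age of 2 months. Each group had 3 libraries, and these 6 belong to a series of 12 in which lines C20 and C22, labelled as overexpressing the same form, have 3 libraries each. The table of gene counts held 124118 genes, 75788 of them with enough counts to be tested. The comparison kept 74741 of these, all except the 1047 tested genes of chromosome 2A that end at or before position 143276770. C40 is 1 line, and no source used here names the promoter of its transgene. The level of TaSIP1 itself was not analysed here, because the table names genes by identifier and none could be matched to TaSIP1.

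By the series title, TaSRO1 binds and restrains TaSIP1 in mitochondrial retrograde signalling, with a bearing on salt tolerance. In such signalling a disturbed mitochondrion changes the transcription of nuclear genes. Alternative oxidase, a bypass of the respiratory chain, is the usual marker of such signalling in plants, and NAC transcription factors held at membranes carry part of the signal in Arabidopsis. Genes are described here by the Pfam protein domains that the table gives, and what a domain family is known to do is background. Wheat is hexaploid, and its near-identical homoeologous genes on the A, B and D chromosomes can share reads, as can members of large families such as the histones.

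Gene counts summed to 37757184 to 43532179 in the WT libraries and 26547959 to 31028886 in those of C40. The tissue label fitted the counts, in that chlorophyll-binding protein genes summed to 28797 CPM (read counts scaled by the TMM-adjusted library total) or more in each of the 6 C40 and WT libraries, and none of the 62 genes of the seed storage list had enough counts to be tested. WT libraries correlated across genes at r between 0.966 and 0.986 in log2 CPM, and C40 replicates 2 and 3 at 0.966. C40 replicate 1 stood apart, at 0.897 and 0.886 with the other C40 libraries. Its values are given beside each result that they touch. The labels do not say that replicates came from separate plants, so p-values reflect how far these samples differ, and that spread may be technical.

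In C40, 13650 of the 74741 genes were called different from WT, or 18.3%, in edgeR's quasi-likelihood test at a Benjamini-Hochberg adjusted p of at most 0.05. Of these, 7399 rose (9.9% of the genes tested) and 6251 fell (8.36%). The estimated change was at least 2-fold for 6459 of the rises and 4769 of the falls. The groups did not overlap for 23.6% of the genes with C40 higher and for 20% with C40 lower. Most genes named below were picked among called genes without overlap, so lack of overlap in a named gene is no added support. The median log2 difference over all genes was 0.11, and it is the reference for the medians of gene lists below. Of the genes called, 54.2% rose with TMM scaling, 51.9% with RLE size factors and 84.3% with library totals alone, which moved the median of all genes from 0.11 to 0.61. The number of calls depended on single libraries. It was, with C40 replicates 1, 2 and 3 left out in turn, 18187, 6909 and 4054, and with WT replicates 1, 2 and 3 left out it was 5816, 4347 and 5769. C40 replicate 1 lay nearer to the WT mean than to the mean of the other C40 libraries for 26.6% of the rises and 12.8% of the falls.

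**Figure D1:**
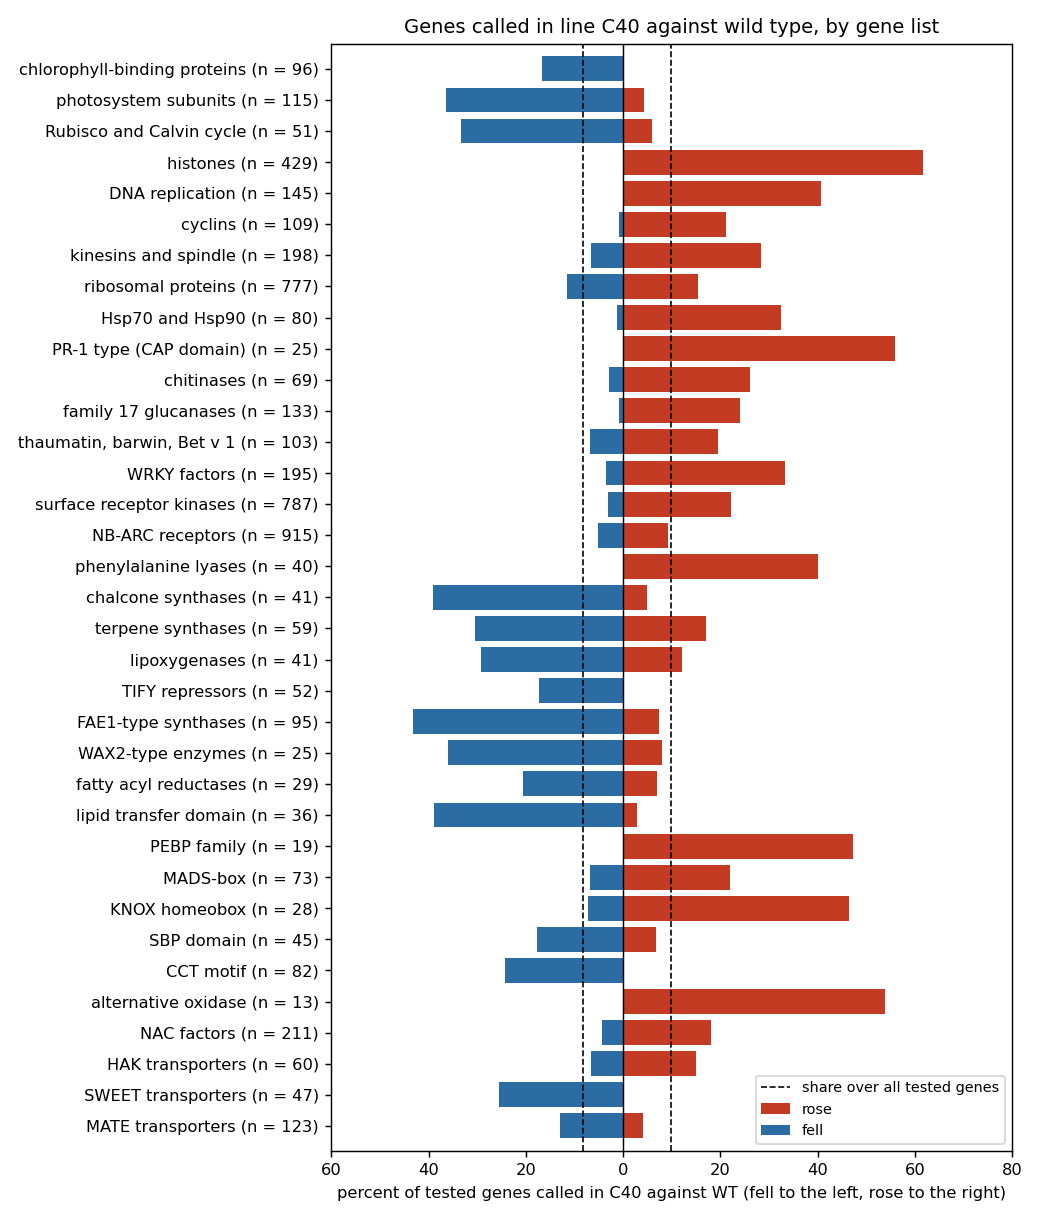
Percent of the tested genes of 35 gene lists that rose (bars to the right) or fell (bars to the left) in C40 against WT, with the number of genes tested beside each name. The dashed lines mark the shares over all tested genes, 9.9% for rises and 8.36% for falls.

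Genes of 3 photosynthesis lists were lower in C40. None of the 96 genes of chlorophyll a/b-binding proteins, which gather light, rose, and 16 fell, with a median log2 difference of -1.22. Of 115 genes of photosystem subunits 42 fell and 5 rose (median -1.32), and of 51 genes of the Rubisco small subunit and the Calvin cycle, which fix carbon dioxide, 17 fell and 3 rose (median -1.44). The Calvin cycle list summed to 49255, 49589 and 67268 CPM in WT replicates 1, 2 and 3 and to 25154, 14820 and 12326 CPM in those of C40. Every C40 library lay below every WT library, with replicate 1 the highest of the C40 libraries. Summed levels of the chlorophyll-binding list were 88805, 81910 and 123260 CPM in WT and 57380, 34599 and 28797 CPM in C40, with the same order and no overlap. In whole shoots, fewer cells of a type and less RNA per cell cannot be told apart.

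The number of falls depended on which libraries were fitted. With C40 replicates 1, 2 and 3 and WT replicates 1, 2 and 3 left out in turn, 21, 3, 2, 3, 4 and 3 chlorophyll-binding genes, 44, 17, 11, 22, 15 and 18 photosystem genes and 24, 3, 0, 5, 2 and 2 Calvin cycle genes fell. A fit of the C40 and WT libraries alone gave 55, 87 and 32 falls in the 3 lists. The abundant Rubisco small subunit gene TraesCS2B01G079200 (chromosome 2B, 44285395 to 44286966) had 2135, 2211 and 3391 CPM in WT and 1002, 605 and 530 CPM in C40. It was lower in all 3 C40 libraries, and its fall of -1.86 ± 0.58 (log2, SE) had an adjusted p of 0.0469. TraesCS4D01G319400, a glyceraldehyde 3-phosphate dehydrogenase gene with 2380, 2531 and 3544 CPM in WT, had 1017, 553 and 482 CPM in C40. C40 was again below WT without overlap (log2 difference -2.04 ± 0.59, adjusted p = 0.0365). Both calls were lost without C40 replicate 2 (adjusted p = 0.131 and 0.111) or 3 (0.163 and 0.138), and without WT replicate 1 (0.0817 and 0.0691), 2 (0.0923 and 0.0803) or 3 (0.126 and 0.0973).

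Many genes of cell division were higher in C40, chiefly in replicates 2 and 3. Histones, which package new DNA, had 265 rises and 0 falls among 429 tested genes, and the DNA replication list 59 rises and 0 falls among 145. Of 198 kinesin and spindle genes, which move chromosomes, 56 rose and 13 fell, and of 109 genes of cyclins, which drive the cell cycle, 23 rose and 1 fell. The median log2 difference was 5.52 for histones, 2.08 for DNA replication and 0.94 for kinesins and spindle proteins. With the 84 histone genes that had no count in WT set at their lower bound, the histone median was 5.18. Summed histone levels were 1614, 1533 and 1912 CPM in WT and 1749, 7836 and 12363 CPM in C40, so that C40 replicate 1 lay within the WT range and the other 2 far above it. For 261 of the 265 histone rises, replicate 1 was nearer to the WT mean than to that of the other C40 libraries. In C20 the summed level also differed widely between libraries, at 7316, 18044 and 2163 CPM.

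The same split was seen in the MCM helicases, the ring that unwinds DNA for replication. The 21 tested genes, of which 15 rose, summed to 5.80, 3.99 and 4.22 CPM in WT and to 8.53, 169 and 495 CPM in C40. TraesCS1B01G274600 (chromosome 1B, 481863034 to 481868723) had no count in WT and 0.308, 14.3 and 43.7 CPM in C40, at least 632-fold more by group totals (adjusted p = 0.0302). The histone gene TraesCS1A01G038200 likewise had no count in WT and 0.985, 69.4 and 132 CPM in C40, at least 2181-fold more (adjusted p = 0.022). Without C40 replicate 3 or any 1 of the WT libraries the histone gene was not called (0.0631, 0.0624, 0.0684 and 0.0622), nor was the helicase (0.0871, 0.0784, 0.0849 and 0.079), which was also lost without C40 replicate 2 (0.0584). The histone count was 366, 58 and 3 without C40 replicates 1, 2 and 3 and 1, 1 and 2 without WT replicates 1, 2 and 3. For DNA replication it was 84, 15, 2, 1, 3 and 3, for kinesins 84, 13, 9, 7, 5 and 6, and for cyclins 46, 4, 0, 1, 0 and 1 in the same order of libraries left out. What sets C40 replicate 1 apart was not tested.

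Protein synthesis and folding showed a smaller difference. Of 777 ribosomal protein genes 120 rose and 89 fell, with a median of 0.85. These were 15.4% and 11.5%, against 9.9% and 8.36% over all genes. Their summed level was 20859 to 26567 CPM in WT and 19391, 27841 and 30266 CPM in C40, with replicate 1 below WT and the others above. The Hsp70 and Hsp90 chaperones, which fold proteins, had 26 rises and 1 fall among 80 genes, and their sum was 3847 to 4247 CPM in WT and 4727, 5205 and 6105 CPM in C40, without overlap. Small heat shock proteins went the other way, with 5 rises and 8 falls among 64 genes (7.81% and 12.5%). They summed to 443, 554 and 528 CPM in WT and 250, 204 and 158 CPM in C40, without overlap. Their median of -0.28 turned to 0.21 with library totals, where 11 rose and 6 fell. With C40 replicates 1, 2, 3 and WT replicates 1, 2, 3 left out in turn, the ribosomal rises numbered 362, 39, 14, 33, 13 and 19, the ribosomal falls 93, 71, 25, 54, 30 and 64, and the Hsp70 and Hsp90 rises 30, 17, 2, 6, 0 and 6. The small heat shock falls numbered 9, 5, 5, 6, 5 and 6 in the same order.

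Several families of defence genes had more rises than falls in C40, although most members of each family other than PR-1 did not pass the test. The PR-1 type proteins, secreted proteins with a CAP domain that are classical markers of salicylic acid defence, had 14 rises and 0 falls among 25 tested genes, with a median log2 difference of 5.54, or 5.15 with the 3 genes without a count in WT at their bound. They summed to 6.02, 7.13 and 17.5 CPM in WT and to 406, 497 and 561 CPM in C40. C40 replicate 1 was thus as far from WT as the others were, and the number of rises stayed between 14 and 16 with any 1 library of C40 or WT left out. Chitinases, which cut fungal cell walls, had 18 rises and 2 falls among 69 genes, and family 17 glucanases, which cut beta-glucans, 32 rises and 1 fall among 133. The thaumatin, barwin and Bet v 1 list, further families of pathogenesis-related proteins, had 20 rises and 7 falls among 103. Protease inhibitors and defensins had 7 rises and 4 falls among 44 genes, or 15.9% and 9.09%, the latter near the 8.36% over all genes. Their sums overlapped, at 256, 193 and 201 CPM in WT and 224, 275 and 266 CPM in C40.

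The gene TraesCS5A01G183300 of the PR-1 type (chromosome 5A, 382777934 to 382778428) had 0.302, 0.44 and 0.24 CPM in WT and 101, 125 and 135 CPM in C40. Its homologue TraesCS5B01G181500 (5B, 331247621 to 331248115) had 0.275, 0.0942 and 0.171 CPM in WT against 80.3, 101 and 105 CPM in C40. Both were barely detected in WT and high in each C40 library, and the log2 differences were 8.5 ± 0.86 (SE, adjusted p = 0.00107) and 9.0 ± 0.96 (0.0012). The chitinase gene TraesCS5B01G403700 went from 0.192, 0.22 and 0.137 CPM to 58.7, 65.9 and 74.5 CPM (8.46 ± 0.94, adjusted p = 0.00138). The glucanase gene TraesCS3D01G478000 had 0.577, 0.471 and 0.377 CPM in WT and 73.1, 77.5 and 86.2 CPM in C40 (7.36 ± 0.81, 0.00137). For TraesCS7A01G558500, a thaumatin gene, the levels were 0.522, 0.345 and 0.549 CPM and 95.6, 116 and 120 CPM (7.86 ± 0.85, 0.00123). In all 3 genes the C40 libraries lay close together and far above WT. The Bet v 1 type gene TraesCS5A01G090600, with 0.226 ± 0.162 CPM in WT and 39.4 ± 14.5 CPM in C40 (SD, n = 3), rose by 7.46 ± 0.84 (adjusted p = 0.0014).

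**Figure D2:**
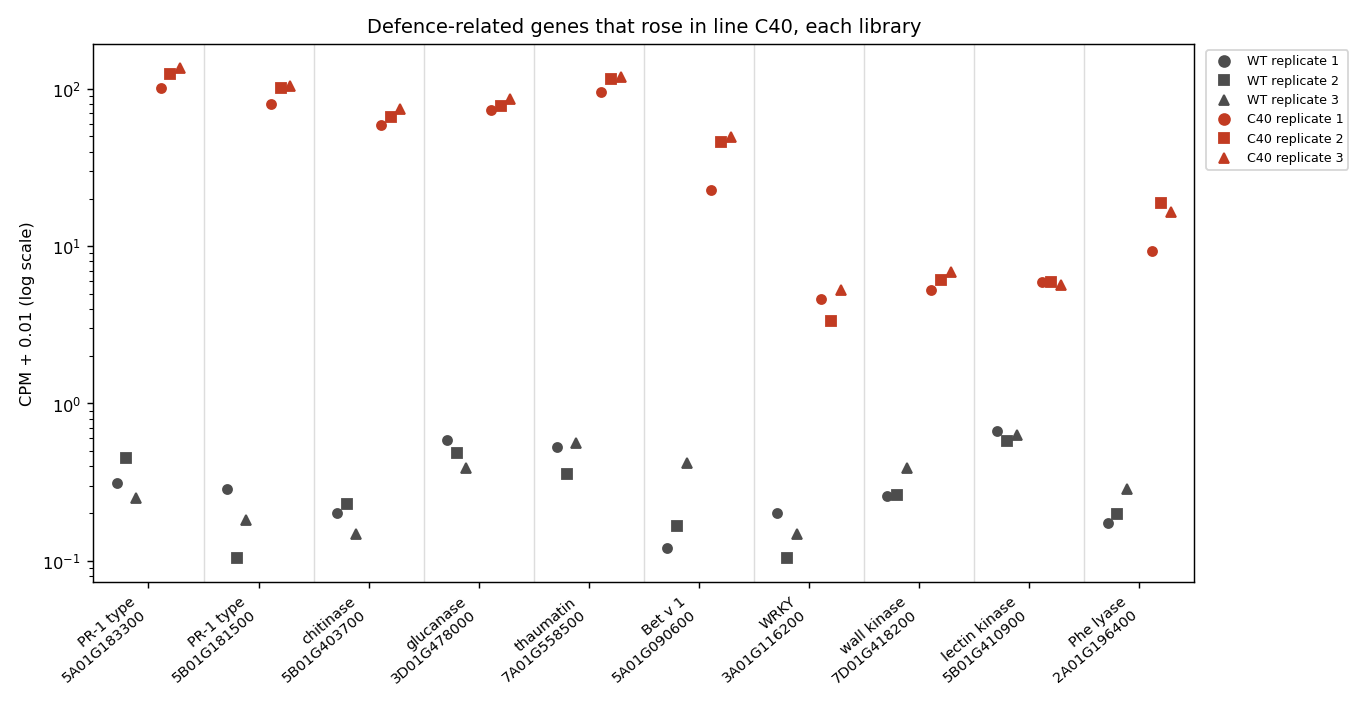
Level of 10 defence-related genes in each WT and C40 library, as CPM + 0.01 on a log scale, with 1 point per library. For every gene shown the 3 C40 libraries lie above the 3 WT libraries, which was a condition for naming it. In TraesCS5A01G183300, WT reached at most 0.44 CPM and C40 had at least 101 CPM.

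Among genes that sense or relay an attack, those of WRKY factors and surface receptor kinases rose more often than all genes did, and those of NB-ARC proteins did not. The WRKY transcription factors, central regulators of plant immunity, had 65 rises and 7 falls among 195 genes (median 1.00), and summed to 1008, 920 and 1207 CPM in WT and 1601, 1792 and 1703 CPM in C40, without overlap. Surface receptor kinases of the DUF26, lectin and wall-associated types had 175 rises and 25 falls among 787 genes, with a median of 0.57, and their sums overlapped slightly, with up to 2595 CPM in WT and from 2570 CPM in C40. The NB-ARC proteins, receptors inside the cell, had 84 rises and 47 falls among 915 genes, or 9.18% and 5.14%, both below the shares over all genes. Their sum was 4429, 4538 and 5216 CPM in WT and lower in C40, at 4402, 3633 and 3893 CPM. The median of the list was 0.17, near the 0.11 over all genes, so the lower sum was not a general fall of its members. A large part of it lay in 1 gene, TraesCS7B01G474800, with a mean of 576 CPM in WT and 27.5 CPM in C40. The WRKY gene TraesCS3A01G116200 had 0.192, 0.0942 and 0.137 CPM in WT and 4.62, 3.34 and 5.25 CPM in C40 (log2 difference 4.91 ± 0.43, adjusted p = 0.000705). The wall-associated kinase TraesCS7D01G418200 had 0.247, 0.251 and 0.377 CPM in WT and 5.23, 6.08 and 6.86 CPM in C40 (4.37 ± 0.4, 0.000833). The legume-lectin kinases TraesCS5B01G410900 and TraesCS2D01G367900 rose by 3.24 ± 0.33 (adjusted p = 0.00107) and 2.56 ± 0.28 (0.00138). All 4 were higher in each C40 library than in any WT library, which was a condition for naming them.

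These counts also depended on the libraries fitted. For C40 replicates 1, 2, 3 and WT replicates 1, 2, 3 left out in turn, the rises were 62, 43, 33, 33, 24 and 30 for WRKY, 155, 107, 72, 74, 64 and 84 for surface receptor kinases, 104, 43, 22, 30, 24 and 30 for NB-ARC proteins, 19, 15, 11, 12, 10 and 15 for chitinases, 40, 22, 18, 20, 19 and 20 for glucanases and 22, 14, 13, 13, 13 and 19 for the thaumatin list. The C40 and WT libraries alone gave 88 rises for WRKY, 250 for surface receptor kinases and 120 for NB-ARC proteins.

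The first list of phenylpropanoid enzymes, phenylalanine lyase and chalcone enzymes together, had 18 rises and 25 falls among 97 genes (median 0.16). Narrower lists were taken from it after the values were seen, and they differed in direction in C40. Phenylalanine ammonia-lyase makes cinnamic acid from phenylalanine at the entry of the pathway, and 16 of its 40 genes rose while 0 fell. Chalcone synthases begin the flavonoid branch, and of 41 genes with a chalcone synthase type domain 16 fell while 2 rose (median -2.24). The domain alone does not show that each of these genes acts in that branch. The lyase gene TraesCS2A01G196400 (2A, 166254570 to 166256576) had 0.165, 0.188 and 0.274 CPM in WT and 9.3, 18.8 and 16.6 CPM in C40, and rose by 6.14 ± 0.47 (adjusted p = 0.000364). The chalcone synthase type gene TraesCS2B01G019200 (2B, 8941896 to 8943174) had 42.7, 46.4 and 41.1 CPM in WT and 0.683 to 2.34 CPM in C40, and changed by -5.01 ± 0.83 (0.00504). Neither gene overlapped between groups. In summed level the chalcone synthases had 1488, 2166 and 2395 CPM in WT and 691, 355 and 217 CPM in C40, whereas the lyases had 1038 to 1211 CPM in WT and 2215, 1652 and 1098 CPM in C40, which overlap. Leaving out C40 replicates 1, 2, 3 and WT replicates 1, 2, 3 in turn gave 17, 12, 10, 11, 10 and 12 lyase rises and 16, 8, 5, 11, 10 and 10 chalcone synthase falls.

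Terpene synthases, which make volatile and defensive isoprenoids, also moved both ways, with 10 rises and 18 falls among 59 genes. TraesCS2D01G029600 (2D, 12258635 to 12262975) had no count in WT and 3.6, 7.0 and 8.2 CPM in C40, at least 203-fold more (adjusted p = 0.00123). TraesCS2B01G445900 (2B, 638955254 to 638958923) had 2.2, 3.23 and 3.43 CPM in WT and 0, 0 and 0.031 CPM in C40, where it rested on 1 count. That is a ratio of 277, with a 95% counting interval of 49.3 to 10973 (adjusted p = 0.0019). The summed level of the list was 515 to 555 CPM in WT and 184, 263 and 278 CPM in C40. With C40 replicates 1, 2, 3 and WT replicates 1, 2, 3 left out in turn, 9, 7, 6, 6, 6 and 6 terpene synthase genes rose and 16, 12, 13, 14, 13 and 12 fell.

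More jasmonate genes fell than rose in C40. Lipoxygenases start jasmonate synthesis by oxidising polyunsaturated fatty acids, and 12 of 41 genes fell while 5 rose. Of 52 genes of the TIFY family, which holds the JAZ repressors of jasmonate response, 9 fell and 0 rose, although their median was 0.17. The lipoxygenases summed to 3048, 3494 and 2878 CPM in WT and 1351, 1617 and 1521 CPM in C40, and the TIFY genes to 1479, 1512 and 1395 CPM and 941, 1040 and 866 CPM, both without overlap. With library totals in place of TMM scaling the lipoxygenase median turned from -0.33 to 0.19, and 6 TIFY genes then rose while 1 fell. For C40 replicates 1, 2, 3 and WT replicates 1, 2, 3 left out in turn, 9, 5, 3, 6, 4 and 5 lipoxygenase genes and 8, 2, 1, 2, 2 and 3 TIFY genes fell.

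The lipoxygenase gene of highest mean level in WT, rank 1 of the 41 tested, was TraesCS5D01G041100 (5D, 41603887 to 41608368). It had 835, 1149 and 895 CPM in WT and 3.14, 31.9 and 16.8 CPM in C40. All 3 C40 libraries were far below WT, with a log2 difference of -5.79 ± 1.2 (adjusted p = 0.0113, and 0.054 without C40 replicate 3). It was named after its values were seen. TraesCS6B01G193400 fell from 75.4, 73.3 and 74.7 CPM to 8.22 to 11.5 CPM (-2.86 ± 0.34, adjusted p = 0.00157). In contrast, TraesCS4D01G035200 (4D, 15912211 to 15916073) had 26.2, 26.5 and 14.3 CPM in WT and 124, 97.7 and 94.1 CPM in C40. This lipoxygenase gene rose in all 3 libraries (2.24 ± 0.3, adjusted p = 0.00215). The TIFY gene TraesCS5B01G203400 had 133, 159 and 156 CPM in WT and 47.2 to 60 CPM in C40 (-1.45 ± 0.27, adjusted p = 0.00726).

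Genes of the cuticle and of very-long-chain lipids fell in number more than they rose. Of 189 genes, 61 fell and 15 rose, which is 32.3% and 7.94%, and the sum went from 3596, 3971 and 4465 CPM in WT to 1184, 1858 and 1344 CPM in C40, without overlap. The median of the list was near 0 (-0.17, and 0.35 with library totals, where 55 genes fell and 31 rose). FAE1-type ketoacyl-CoA synthases, which lengthen fatty acids for waxes, had 41 falls and 7 rises among 95 genes. Enzymes with a WAX2 domain, known from Arabidopsis to act in alkane formation, had 9 falls and 2 rises among 25. Fatty acyl reductases, which make wax alcohols, had 6 falls and 2 rises among 29, and their sum was 796, 1066 and 1076 CPM in WT against 116, 189 and 97 CPM in C40.

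The WAX2-type gene TraesCS1A01G150800 (1A, 258857885 to 258862801) had 40.3, 50.7 and 37.7 CPM in WT and 0.523, 1.08 and 0.497 CPM in C40. It was nearly lost in all 3 C40 libraries (log2 difference -5.93 ± 0.78, adjusted p = 0.00215) and was named after its values were seen. The FAE1-type gene TraesCS4D01G242200 (4D, 405027998 to 405029655) had 104, 120 and 175 CPM in WT and 17.8, 18.1 and 11.1 CPM in C40 (-3.09 ± 0.33, 0.0012). A further one, TraesCS2A01G507700 (2A, 734652855 to 734654231), had 4.12, 4.18 and 5.14 CPM in WT and 0.0616, 0.131 and 0.031 CPM in C40 (-5.85 ± 0.61, 0.00116). No library of C40 reached the WT range for either gene. An acyl reductase locus without a reference gene identifier (1A, 8041058 to 8045258) had 6.82, 8.82 and 7.61 CPM in WT and no count in C40, at least 245-fold less (adjusted p = 0.00415). With C40 replicates 1, 2, 3 and WT replicates 1, 2, 3 left out in turn, 58, 48, 35, 49, 46 and 49 genes of the wax list fell and 26, 4, 3, 6, 2 and 5 rose, and 36, 31, 25, 31, 30 and 33 FAE1-type genes fell. In the same order 8, 5, 2, 5, 5 and 4 acyl reductase genes fell and 2, 0, 0, 0, 0 and 0 rose.

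Genes with the domain shared by protease inhibitors, seed storage proteins and lipid transfer proteins fell as well, several of them close together on chromosome 3B. Of the 36 tested genes with the domain 14 fell and 1 rose, and with C40 replicates 1, 2, 3 and WT replicates 1, 2, 3 left out in turn 11, 12, 1, 6, 5 and 6 fell. On chromosome 3B between 30 and 40 Mb, 14 of 36 tested genes fell, or 38.9%, against a median of 8.06% and a next highest value of 25% over the 1249 windows of 10 Mb with at least 20 tested genes. In C22 the number called lower than WT in this window was also 14, against the same WT libraries. Of the 14 falls in C40, 7 were genes with that domain, such as TraesCS3B01G063200 (35461914 to 35462261) with 172, 188 and 244 CPM in WT and 11.5, 59.7 and 32.1 CPM in C40. Its neighbour TraesCS3B01G062700 (34522061 to 34522513) had 238, 309 and 544 CPM in WT and 28.7, 80.5 and 42.4 CPM in C40. Neither overlapped, and the log2 differences were -2.55 ± 0.76 (adjusted p = 0.0407) and -2.85 ± 0.83 (0.0379). These 2 genes were chosen after their values were seen. The first call was lost without C40 replicate 1 or 3 (0.0724 and 0.135) or WT replicate 1, 2 or 3 (0.0771, 0.0893 and 0.0998), and the second without any 1 of the 6 libraries (0.0626 to 0.133).

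**Figure D3:**
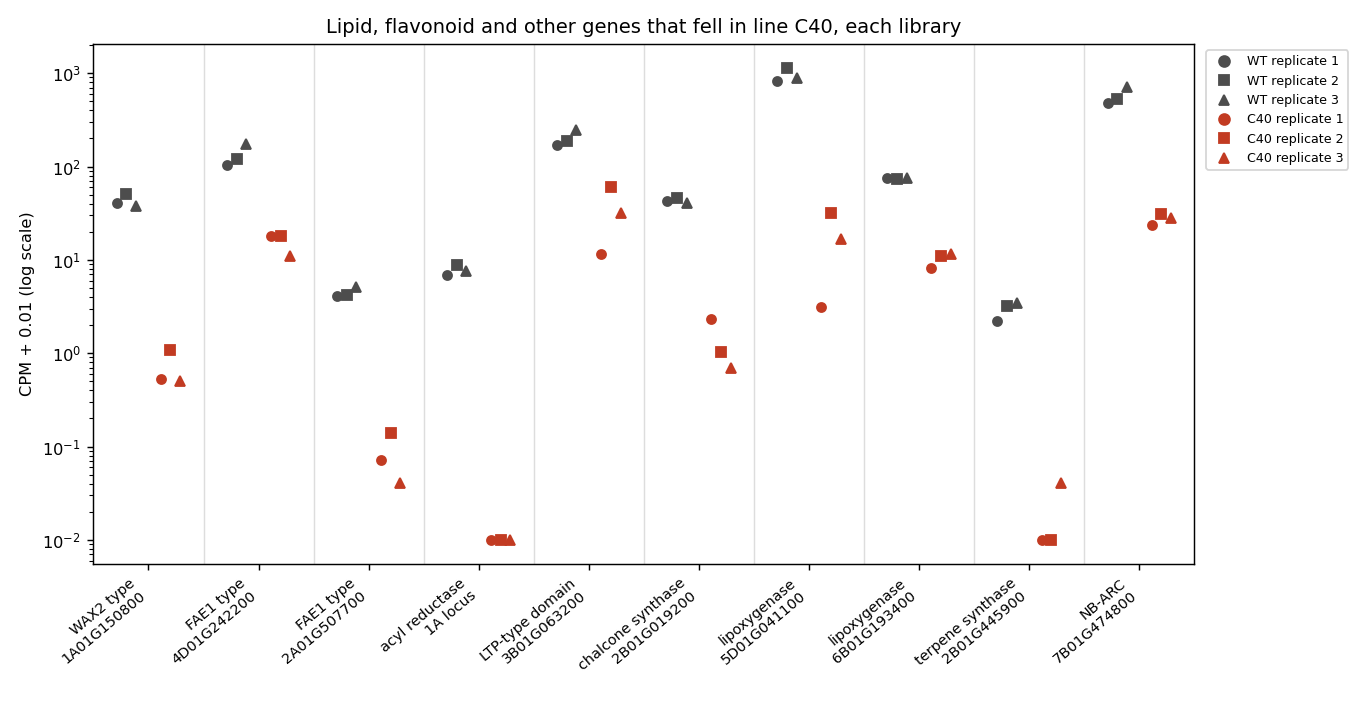
Level of 10 genes that fell in C40, in each WT and C40 library, as CPM + 0.01 on a log scale, with 1 point per library. Points at 0.01 are libraries without a count, as for the acyl reductase locus on 1A in all 3 C40 libraries.

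Genes of the shoot meristem and of flowering differed from WT. KNOX homeobox proteins, of which the class I members keep meristem cells undifferentiated in Arabidopsis and maize, had 13 rises and 2 falls among 28 genes, with a median of 2.19. Their summed level was not higher, at 301, 319 and 250 CPM in WT and 275, 240 and 231 CPM in C40, which overlap. Of 19 genes of the PEBP family, which holds the mobile flowering signal FT and its antagonists, 9 rose and 0 fell, and their sum was 25 to 50.2 CPM in WT and 302, 150 and 161 CPM in C40. MADS-box factors, which specify flowers and flowering time, had 16 rises and 5 falls among 73 genes. The 82 genes with a CCT motif, a domain of day length and clock regulators, had 20 falls and 0 rises, with a median of -0.63 that stayed negative at -0.14 with library totals, where 10 fell and 4 rose.

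The 4 KNOX genes described here were at or near 0 in WT and were detected in all 3 C40 libraries. TraesCS4A01G256700 (4A, 569477449 to 569484409) had no count in WT and 7 to 11 CPM in C40, at least 300-fold more (adjusted p = 0.000611). TraesCS2A01G267400 (2A, 426376519 to 426381129) also had no count in WT, and 7.08, 7.2 and 7.48 CPM in C40 made it at least 235-fold higher (0.000833). TraesCS2B01G268200 (2B, 362018342 to 362022349) had 0, 0.0314 and 0.0343 CPM in WT, 2 counts in all, against 13.3, 8.44 and 11.4 CPM in C40, a ratio of 540 with a 95% counting interval of 149 to 4467 (0.000833). TraesCS2D01G256400, named after its values were seen, had 0.0539 ± 0.0424 CPM in WT and 7.74 ± 1.88 CPM in C40 (SD, n = 3). It rose by 7.11 ± 0.67 (adjusted p = 0.000944). All 4 were also higher in C40 than in the mean of C20 and C22, with adjusted p between 0.00183 and 0.00294. Over the 4 genes, levels were 1.48 to 8.8 CPM in C22 and at most 0.256 CPM in C20. The contrast averages these lines on the log scale, so the low C20 levels enlarge it. It does not give the difference from C22 alone.

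Among the PEBP genes, TraesCS3A01G143100 (3A, 124172881 to 124176487) had 4.4, 3.23 and 6.55 CPM in WT and 132, 53.4 and 62.6 CPM in C40. Its counterpart on 3D, TraesCS3D01G144500 (107678480 to 107682094), had 2.56, 2.86 and 4.66 CPM in WT and 59.3, 28.6 and 31.2 CPM in C40. C40 was above WT without overlap in both, replicate 1 being the highest library, and the log2 differences were 4.13 ± 0.44 (adjusted p = 0.0012) and 3.56 ± 0.45 (0.00183). TraesCS7A01G115400, named after its values were seen, rose from 0.19 ± 0.189 to 2.95 ± 0.94 CPM (SD, n = 3; adjusted p = 0.0152, and 0.0579 without WT replicate 1). The MADS-box gene TraesCS5A01G391700 (5A, 587411824 to 587423240) had 29.0, 26.6 and 36.1 CPM in WT and 150, 114 and 112 CPM in C40 (2.03 ± 0.2, adjusted p = 0.00105). All 4 of these genes were higher in C40 than in the mean of the other lines, by 1.03 to 4.63 on the log2 scale (adjusted p = 0.00717 to 0.0197).

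A set of 3 SBP genes on 2A, 2B and 2D fell in C40, and in C22 they were higher than in WT (adjusted p = 0.00212, 0.00585 and 0.00335). SBP factors promote the passage from the juvenile to the adult shoot and shape the inflorescence. TraesCS2A01G232400 (2A, 276276677 to 276278960) had 3.49, 4.65 and 3.39 CPM in WT and 0.893, 0.883 and 0.962 CPM in C40, against 17.7, 21.1 and 19.4 CPM in C22. TraesCS2B01G250900 had 9.02, 10.9 and 9.22 CPM in WT, 2.19, 1.47 and 2.45 CPM in C40 and 31.5, 35.9 and 37.9 CPM in C22. For TraesCS2D01G232800 the levels were 6.41, 7.5 and 5.01 CPM, 2.15, 1.08 and 1.83 CPM and 24.8, 28.4 and 27.6 CPM. In each gene C40 was the lowest group and C22 the highest, with no overlap between these 3 groups. C40 differed from WT by -2.07 ± 0.28, -2.25 ± 0.32 and -1.9 ± 0.29 (log2, SE; adjusted p = 0.00229, 0.00265 and 0.00382). It differed from C22 by -4.4, -4.1 and -3.99 (adjusted p = 0.000339, 0.000863 and 0.000579).

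**Figure D4:**
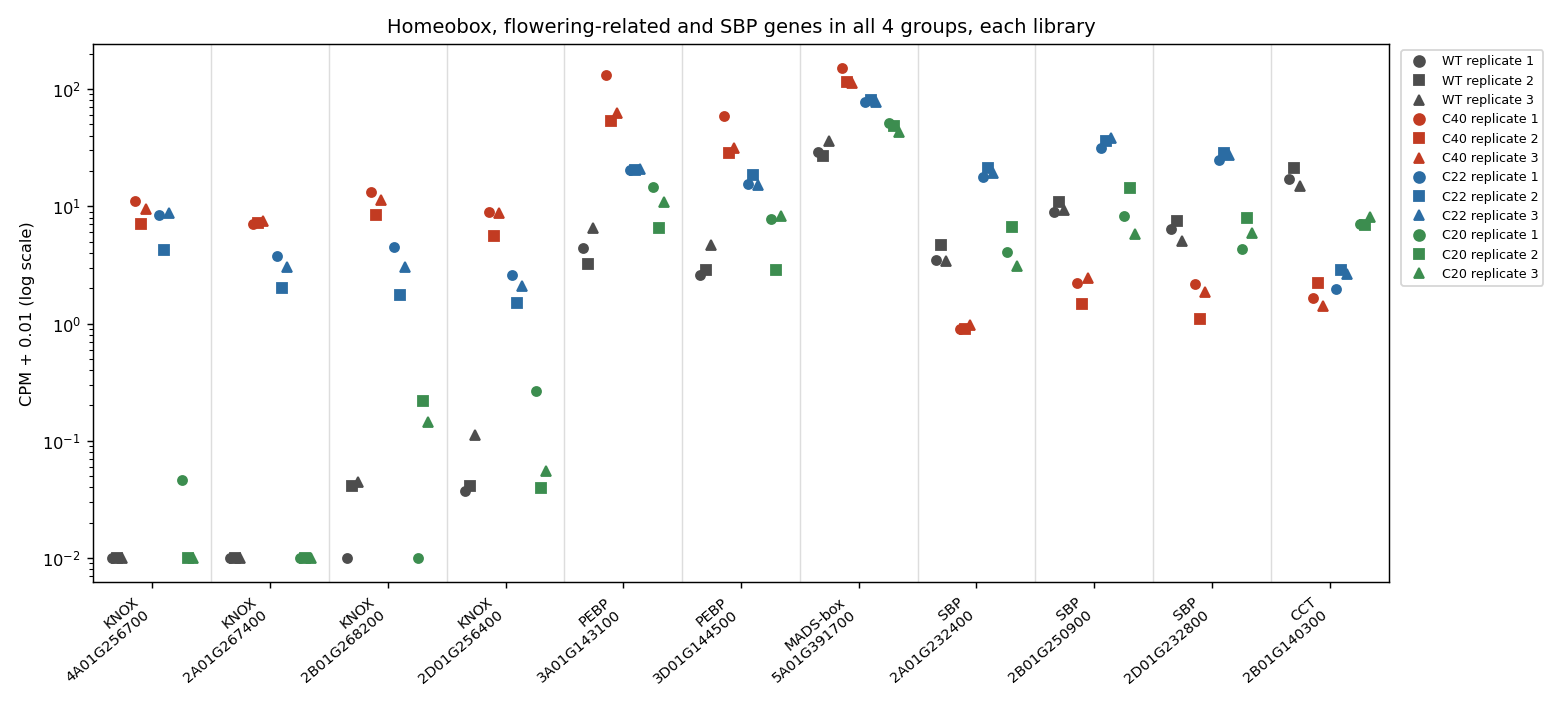
Level of 4 KNOX, 2 PEBP, 1 MADS-box, 3 SBP and 1 CCT gene in each library of WT, C40, C22 and C20, as CPM + 0.01 on a log scale. Points at 0.01 are libraries without a count, and the 3 SBP genes are lowest in C40 (0.883 to 2.45 CPM) and highest in C22 (17.7 to 37.9 CPM).

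The CCT gene TraesCS2B01G140300 (2B, 106954487 to 106956522) had 17.2, 21.3 and 14.8 CPM in WT and 1.63, 2.22 and 1.4 CPM in C40, and its counterpart TraesCS2D01G121400 on 2D had 9.92, 10.8 and 7.78 CPM and 0.769, 0.851 and 0.404 CPM. Both fell in every C40 library (log2 difference -3.34 ± 0.24, adjusted p = 0.000329, and -3.81 ± 0.44, 0.00146). For C40 replicates 1, 2, 3 and WT replicates 1, 2, 3 left out in turn, the rises numbered 12, 12, 11, 10, 10 and 11 for KNOX, 9, 7, 4, 2, 3 and 8 for PEBP and 14, 10, 7, 8, 7 and 8 for MADS-box genes, and the CCT falls 27, 13, 9, 12, 11 and 12.

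Markers of mitochondrial signalling moved in part. Alternative oxidase had 7 rises and 0 falls among 13 genes, with sums of 134, 134 and 161 CPM in WT and 240, 202 and 215 CPM in C40. TraesCS2A01G438200 had 1.04, 1.0 and 1.23 CPM in WT and 22.1, 19.9 and 21.9 CPM in C40 (log2 difference 4.28 ± 0.68, adjusted p = 0.00425). Of 147 respiratory chain genes 3 rose and 2 fell, or 2.04% and 1.36%, below the shares over all genes. Their sum was lower in every C40 library (6910, 7380 and 6469 CPM) than in any WT library (9601, 9052 and 12049 CPM). The median of the list was 0.07, near the 0.11 over all genes, so the lower sum was not a general fall of its members. Genes were picked by domain names, which do not say in which organelle a subunit works. Of 142 mitochondrial carriers 5 rose and 14 fell, or 3.52% and 9.86%, the latter near the share over all genes, and with library totals 26 rose and 7 fell. The NAC transcription factors had 38 rises and 9 falls among 211 genes, and the SRO and PARP list, which holds the family of TaSRO1, had 6 rises and 0 falls among 20. The NAC gene TraesCS5B01G141900 had 0.907, 0.691 and 0.994 CPM in WT and 5.17, 5.3 and 5.49 CPM in C40 (2.62 ± 0.37, 0.0027). TraesCS2D01G378800, a further NAC gene, rose from 0.486 ± 0.144 to 4.71 ± 1.69 CPM (SD, n = 3; adjusted p = 0.00258). TraesCS7A01G414700 of the PARP list rose from 0.561 ± 0.22 to 3.74 ± 1.8 CPM (0.0107). With C40 replicates 1, 2, 3 and WT replicates 1, 2, 3 left out in turn, 7, 4, 4, 4, 3 and 4 alternative oxidase genes, 37, 25, 24, 20, 20 and 25 NAC genes and 6, 6, 1, 3, 2 and 2 genes of the SRO and PARP list rose, while 12, 3, 2, 5, 4 and 6 carrier genes fell and 12, 4, 0, 0, 0 and 2 rose.

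In redox control, 2 of the 8 catalase genes rose and 0 fell, and the median of the 8 was -0.06. Their sums overlapped, at 1804, 1560 and 2461 CPM in WT and 2733, 1942 and 2090 CPM in C40. A fit of the C40 and WT libraries alone gave 2 rises and 3 falls. Catalases break down hydrogen peroxide, mainly in peroxisomes. TraesCS6D01G048300 (6D, 23075691 to 23077656) had 115, 121 and 179 CPM in WT and 1041, 557 and 597 CPM in C40, and TraesCS6B01G056800 (6B, 37251092 to 37252918) had 146, 63.8 and 88.9 CPM and 578, 514 and 589 CPM. Both were higher in each C40 library than in any WT library, with log2 differences of 2.4 ± 0.32 (adjusted p = 0.00229) and 2.49 ± 0.35 (0.00267). Both were also above the mean of C20 and C22, by 1.6 ± 0.26 (0.0164) and 1.45 ± 0.28 (0.0309). Peroxiredoxins and glutathione peroxidases, which also remove peroxides, had 10 falls and 2 rises among 40 genes, with sums of 3849 to 4546 CPM in WT and 2309, 1987 and 1528 CPM in C40. Glutathione transferases, which detoxify reactive compounds, had 51 rises and 19 falls among 222, although their sum was slightly lower in C40, at 3237, 3126 and 3054 CPM against 3290, 3323 and 3752 CPM in WT. For C40 replicates 1, 2, 3 and WT replicates 1, 2, 3 left out in turn, the peroxiredoxin list had 11, 3, 0, 6, 1 and 5 falls and the transferases 56, 32, 19, 23, 14 and 21 rises.

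Among transporters that bear on salt, 17 of 121 sodium and potassium transporter genes rose and 8 fell, or 14% and 6.61%, against 9.9% and 8.36% over all genes. Their summed level was lower in C40 without overlap, at 1262, 971 and 981 CPM against 1402, 1422 and 1505 CPM in WT. HKT-type proteins retrieve sodium from the xylem, and 3 of 13 rose. TraesCS7A01G418500 (7A, 610433709 to 610435734) had 0.0275, 0.0628 and 0.0343 CPM in WT and 1.48, 4.87 and 1.68 CPM in C40 (5.89 ± 0.71, adjusted p = 0.00166). The HAK potassium transporter genes TraesCS7D01G066200 and TraesCS7A01G071000 had no count in WT. C40 had 7.82, 2.19 and 1.83 CPM of the first and 9.02, 2.09 and 3.35 CPM of the second, at least 129-fold and 158-fold more (adjusted p = 0.00548 and 0.00641). Replicate 1 was the highest C40 library for both HAK genes and the lowest for the HKT gene. SWEET sugar exporters had 12 falls and 0 rises among 47 genes (25.5% fell) and MATE exporters 16 falls and 5 rises among 123 (13% fell). Both medians changed sign with library totals (-0.33 to 0.15 and -0.36 to 0.16), where 10 SWEET genes fell and 4 rose, and 9 MATE genes fell and 19 rose. TraesCS6D01G009600 of the SWEET type had 2.36, 3.74 and 3.63 CPM in WT and 0.0923, 0.36 and 0.124 CPM in C40 (-4.06 ± 0.5, 0.0017). The MATE gene TraesCS5A01G142000 fell from 21.3, 26.8 and 22.3 to 2.4, 3.14 and 2.2 CPM (-3.18 ± 0.32, 0.00107). Late embryogenesis abundant proteins and dehydrins, which protect drying cells, had 23 rises and 13 falls among 130 genes. These were 17.7% and 10%, the latter near the share over all genes. Among the rises was TraesCS1D01G349900 with 0.253 ± 0.0484 CPM in WT and 3.41 ± 1.07 CPM in C40 (SD, n = 3; adjusted p = 0.00261). With C40 replicates 1, 2, 3 and WT replicates 1, 2, 3 left out in turn, 17, 15, 10, 11, 10 and 12 sodium and potassium transporters and 24, 14, 12, 13, 11 and 14 dehydrin and late embryogenesis genes rose, and 15, 8, 6, 7, 7 and 8 SWEET and 20, 9, 6, 10, 7 and 10 MATE genes fell.

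Outside these groups, a very large rise was that of TraesCS7D01G021100 (7D, 9458292 to 9462258), a gene with the BURP domain of plant cell wall and secreted proteins. It had 0.055, 0 and 0 CPM in WT, 2 counts in all, and 269, 48.3 and 29.1 CPM in C40. The ratio was 5700, with a 95% counting interval of 1578 to 47076 (adjusted p = 0.00116), and C40 replicate 1 was the highest library. TraesCS5D01G448800 (5D, 498171866 to 498173722), a family 10 glycosyl hydrolase of the kind that cuts xylan, had 7.36, 7.62 and 21.3 CPM in C40 and no count in WT, C20 or C22, at least 395-fold more than WT (adjusted p = 0.00566). On 7B, TraesCS7B01G253600 (467528239 to 467535225), an aminotransferase gene, and TraesCS7B01G253700 (467974288 to 467975924), a cytochrome P450 gene, had no count in WT and at least 879-fold and 326-fold more in C40 (adjusted p = 0.00123 and 0.00204). Among abundant rises, the ribonuclease T2 gene TraesCS1B01G170200 had 50.5, 52.8 and 84.3 CPM in WT and 784, 406 and 383 CPM in C40 (3.07 ± 0.54, 0.00626).

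Among the deepest falls, the cytochrome P450 gene TraesCS3D01G077400 (3D, 37968869 to 37970901) had 18.1, 27.6 and 30.8 CPM in WT and 0.0616, 0 and 0 CPM in C40, a ratio of 1191 with a counting interval of 329 to 9840 (adjusted p = 0.00141). TraesCS6D01G014100 (6D, 5940963 to 5942441), a pyridoxal-dependent decarboxylase gene, had 20.7, 24.6 and 8.68 CPM in WT and 0.0308, 0.0327 and 0 CPM in C40, a ratio of 875 with an interval of 242 to 7227 (0.000507). The O-methyltransferase gene TraesCS1D01G338100 had 58.0 ± 16.4 CPM in WT and 0.19 ± 0.165 CPM in C40 (SD, n = 3; -8.23 ± 1.22, 0.00326). All 3 genes were close to lost in each C40 library.

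**Figure D5:**
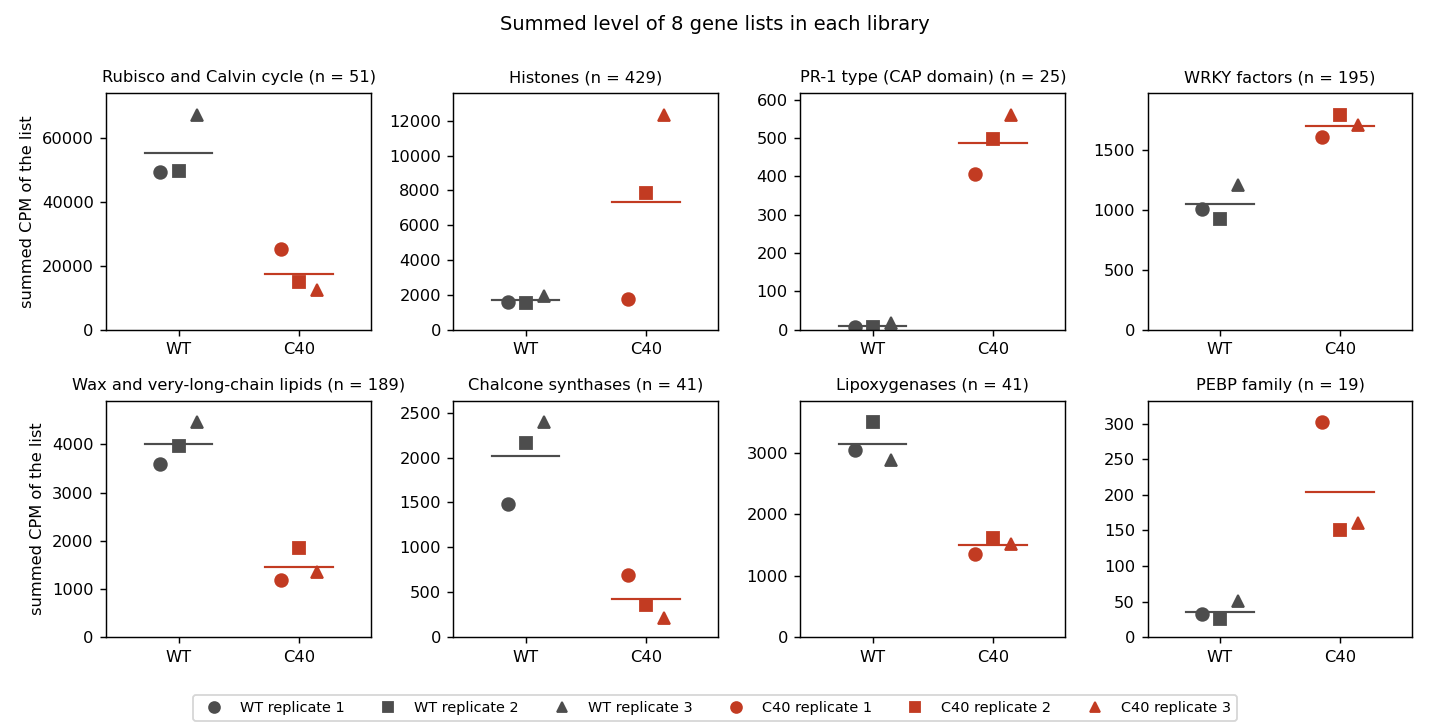
Summed CPM of 8 gene lists in each WT and C40 library, on linear axes from 0, with points for libraries and a line for the group mean. C40 replicate 1 lies within WT for histones (1749 CPM against 1533 to 1912 CPM) and with the other C40 libraries for the PR-1 type genes (406 to 561 CPM against 6.02 to 17.5 CPM).

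C40 was then set against the mean of C20 and C22 in the same model. This test shares the C40 libraries with the comparison against WT, so the 2 are not independent. C40 was higher for 797 genes (1.07%) and lower for 149 (0.199%), and 571 of the higher and 135 of the lower genes were called the same way against WT. Without C40 replicates 1, 2 and 3 in turn, 453, 263 and 287 genes were higher and 89, 54 and 38 lower. By list, C40 was higher than the other lines for 30 of 787 surface receptor kinases and lower for 0, and higher for 14 of 246 AP2 factors and 5 of 28 KNOX genes. It was lower for 13 of 95 FAE1-type synthases and higher for 0. No histone gene was called in this contrast, nor any chlorophyll-binding gene. Few genes were called at all, and histone sums varied widely within C40 and C20. The lack of calls therefore does not show that the lines are alike in these genes.

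Among the genes higher in C40, TraesCS4B01G222300 encodes a subunit of the general transcription factor IIF. It had 5.08 ± 1.5 CPM in WT, 14.0 ± 5.13 CPM in C40 (SD, n = 3) and at most 0.473 CPM in any library of C22 or C20. Against the other lines C40 was higher by 6.36 ± 0.34 (adjusted p = 3.48e-05), while its rise against WT (1.46 ± 0.33, 0.0166) was lost without WT replicate 2 (0.0698). For TraesCS2B01G212400, with the DUF260 domain of plant organ boundary factors, C40 stood apart. WT had 3.93, 3.42 and 2.43 CPM, C22 and C20 had 2.47 to 3.65 CPM, and C40 had 17.5, 19.1 and 14.0 CPM (2.41 ± 0.19 against the other lines, 0.000475). The rhodanese-type gene TraesCS7D01G153100 had at most 0.816 CPM in any library outside C40 and 4.22 to 10 CPM in C40 (4.18 ± 0.32, 0.000475). TraesCS3A01G528900, a C13 peptidase gene, and TraesCS2D01G468200, of the polyphenol oxidase type, were higher by 3.2 ± 0.25 (0.000475) and 4.61 ± 0.42 (0.00097).

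In the other direction, a locus on 2D (301360803 to 301364593) with a domain of triterpene cyclases had 6.87, 7.79 and 8.47 CPM in WT and 0.0308, 0.0327 and 0.0931 CPM in C40. C22 and C20 had 7.96 to 11.6 CPM, so that C40 alone was low (-7.42 ± 0.36 against the other lines, adjusted p = 2.42e-05). On chromosome 5B a pair of adjacent genes, the NB-ARC gene TraesCS5B01G569300 (711821937 to 711830615) and the leucine-rich repeat gene TraesCS5B01G569400 (711830749 to 711832617), had at least 11.9 CPM in every WT library and at most 2.92 CPM in C40, against 6.97 to 13.4 CPM in C22 and C20 (-1.93 ± 0.17, 0.00097, and -2.15 ± 0.18, 0.000688). The abundant NB-ARC gene TraesCS7B01G474800 (7B, 730905567 to 730911530) had 476, 534 and 719 CPM in WT and 23.5, 30.7 and 28.3 CPM in C40. C22 had 137 to 198 CPM and C20 107 to 322 CPM, between WT and C40 (-2.78 ± 0.37, 0.00748).

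The called genes were spread over all chromosomes. Between 8.42% (6B) and 12.7% (genes without an assigned chromosome) of the tested genes rose, and between 7.49% (1B) and 9.83% (6B) fell. Among the genes of 2A that were left out, 420 of 1047 fell and 33 rose.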

How the data were processed

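RNA of the upper part of wheat seedlings was sequenced from NEBNext Ultra libraries made from 1 µg of total RNA, per the labels' protocols. The authors deposited read counts per gene and FPKM for 12 libraries, with featureCounts 1.5.0-p3 named in the submitters' processing notes. No source used here gives the aligner, the genome build or the strand setting. The deposited counts are raw and whole. FPKM, also deposited by the authors, served for 1 alternative. Apart from gene length it is the counts scaled by 1 constant per library, so it is no independent measurement. That constant differed from the one of library totals, by factors such as 0.807 in C40 replicate 3 and 1.35 in WT replicate 3.

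The deposited counts were fitted with edgeR 4.0.16 (R 4.3.3) by filterByExpr, TMM scaling and the quasi-likelihood test, with 4 group means over all 12 libraries. Benjamini-Hochberg adjustment ran over all 75788 tested genes, and genes were called at an adjusted p of at most 0.05. Every adjusted p is from that test, two-sided. The SE of a log2 difference is its size over the square root of F. Where a group had no count, a fold is a bound, computed as if that group had 3 counts in all, and where it had 1 to 3 counts as a ratio with an exact 95% interval. Floors and intervals cover counting error alone, and 3 counts were worth 0.0825 to 0.103 CPM in a library.

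Alternatives were RLE size factors, library totals, other filters, a replicate block, fewer libraries, DESeq2 1.42.0, and limma 3.58.1 on log2(FPKM + 0.1). On simulated data for C40 against WT, with 100 genes changed at each fold among 75788, edgeR recovered 0% at 2-fold and 24% at 4-fold with 3 false calls. DESeq2 recovered 19% and 72% with 115 false calls, and limma 1% and 30% with 4. Far fewer genes were changed there than were called in the real data, which makes the adjusted threshold stricter in the simulation.

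Named genes were described genes with at least 2 CPM in the higher group, called, and without overlap between groups: those with the widest changes, the highest levels, the lowest adjusted p in each list, or the lowest adjusted p against the other lines. A part of them is printed, chosen with their values in view, and further genes are marked as chosen after their values were seen. The members and lists were chosen with earlier results of these data known, and 24 of the lists were added after the values were seen. Of the 64 other lists, 3 had no tested gene. The added lists in the text include MCM helicases, phenylalanine lyases, chalcone synthases, lipoxygenases, TIFY, FAE1-type, WAX2, fatty acyl reductases and the lipid transfer domain. They also include KNOX, PEBP, MADS-box, SBP, CCT, catalases, peroxiredoxins with glutathione peroxidases, HKT and HAK. Replicate numbers were not taken as pairs, because the deviations of same-numbered libraries had no common sign.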

Additional observations from a re-analysis of the deposited data

Results flagged for a closer look

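The difference between C40 and the other overexpression lines was itself tested, as C40 against the mean of C20 and C22, and it flagged 797 genes that were higher and 149 that were lower in C40. The values below are log2 differences of that contrast for genes named above. Where C20 or C22 had no count, the fitted value depends on the prior count of the model and is no bound.

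Among regulators, the KNOX genes TraesCS4A01G256700, TraesCS2A01G267400, TraesCS2B01G268200 and TraesCS2D01G256400 were higher by 4.77, 6.08, 4.17 and 4. For these KNOX genes C20 was lower than C22, which enlarges the contrast. The PEBP genes TraesCS3A01G143100, TraesCS3D01G144500 and TraesCS7A01G115400 were higher by 2.49, 1.97 and 4.63, and the MADS-box gene TraesCS5A01G391700 by 1.03. The SBP genes TraesCS2A01G232400, TraesCS2B01G250900 and TraesCS2D01G232800 differed by -3.37, -3.16 and -2.91, and the CCT gene TraesCS2B01G140300 by -1.28.

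In defence, the Bet v 1 type gene TraesCS5A01G090600 was higher by 2.67, the WRKY gene TraesCS3A01G116200 by 2.24 and the phenylalanine lyase gene TraesCS2A01G196400 by 1.75. The receptor kinases TraesCS7D01G418200, TraesCS5B01G410900 and TraesCS2D01G367900 were higher by 1.76, 1.29 and 1.7. The terpene synthase gene TraesCS2D01G029600 was higher by 2.87 and the lipoxygenase gene TraesCS4D01G035200 by 1.95. The NB-ARC genes TraesCS5B01G569300 and TraesCS7B01G474800 differed by -1.93 and -2.78, and the leucine-rich repeat gene TraesCS5B01G569400 by -2.15.

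Catalase genes TraesCS6D01G048300 and TraesCS6B01G056800 were higher by 1.6 and 1.45. The transporter genes TraesCS7A01G418500, TraesCS7D01G066200 and TraesCS7A01G071000 were higher by 2.66, 6.9 and 6.17, whereas the SWEET gene TraesCS6D01G009600 and the MATE gene TraesCS5A01G142000 differed by -2.2 and -1.42. In lipid metabolism, TraesCS2A01G507700 of the FAE1 type and TraesCS1A01G150800 of the WAX2 type differed by -4.65 and -3.36.

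Of the other genes, TraesCS7D01G021100 was higher by 7.57, TraesCS7B01G253600 by 2.38, TraesCS7B01G253700 by 3.62 and TraesCS5D01G448800 by 11.59. TraesCS4B01G222300, TraesCS3A01G528900, TraesCS2B01G212400, TraesCS7D01G153100 and TraesCS2D01G468200 were higher by 6.36, 3.2, 2.41, 4.18 and 4.61. The decarboxylase gene TraesCS6D01G014100 differed by -4.72 and the triterpene cyclase locus on 2D by -7.42.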

How the results depend on the processing

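Between C40 and WT, library totals without TMM factors, chosen after seeing the data, gave 21124 calls (17810 rises and 3314 falls), and the fit without the C20 libraries gave 24060 (13160 and 10900). DESeq2 gave 20990 (11501 and 9489). Leaving out 1 library gave 4054 to 18187 calls, with 2043 to 10059 rises and 1678 to 8128 falls. Against the mean of C20 and C22, library totals gave 1774 calls with 1581 higher, and the replicate block gave 601 with 494 higher. Leaving out 1 C40 library gave 317 to 542 calls, with 263 to 453 higher and 38 to 89 lower. The replicate block gave 12020 calls between C40 and WT. The correlation of same-numbered deviations was -0.335, 0.266 and -0.121 for replicates 1, 2 and 3, without a common sign. With 3 libraries a group these values cannot settle whether same-numbered libraries are paired. The fits with RLE size factors, without a filter, with a filter of 1 CPM, with the C40 and WT libraries alone and with limma kept the number of calls between C40 and WT within 1.5 times of that reported. The cause of these shifts was not tested.

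Of the 70 genes named in the text, all 70 kept direction and call with RLE size factors, library totals, the 1 CPM filter, the C40 and WT libraries alone, the fit without the C20 libraries and DESeq2. The calls of 1 gene without a filter, 3 with the replicate block and 2 with limma were lost. Leaving out C40 replicates 1, 2 and 3 lost 2, 4 and 7 of them, and leaving out WT replicates 1, 2 and 3 lost 7, 7 and 6. No direction changed. Among alternative oxidase genes not called, TraesCS2A01G541400 turned to 0.29 (log2) with library totals, and TraesCS2D01G542600, at -0.03 as reported, turned to 0.46 with library totals and ranged from -0.35 to 0.1 with 1 library left out. Depth limits genes near the floor. In the simulation, with 3 libraries a group, 2-fold changes were largely unseen. It changed a far smaller share of genes than the 18.3% called here, so its recovery does not measure the sensitivity of this comparison.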
